A study of Mus musculus with 2 samples.

Results

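The receptors that share the common gamma chain were examined in naive CD4 and naive CD8 T cells, which have not yet met antigen and give rise to helper and cytotoxic cells. The 8 receptor genes, Il2ra, Il2rb, Il2rg, Il4ra, Il7r, Il9r, Il15ra and Il21r, were taken by symbol from the 23167 symbols of the deposited tables, and all 8 were found. Ribosomal-RNA-depleted total RNA was sequenced as 1 library of naive CD4 cells and 1 library of naive CD8 cells. Both came from spleen and lymph nodes of Foxp3-GFP mice, which carry a green fluorescent reporter of the regulatory T cell factor Foxp3 on a C57/BL6 background. Both were sorted by a naive surface phenotype that included low CD44, and without CD25 or the reporter. The number of animals, their age and sex, and any pooling are not given among the sources used here.

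Values are RPKM, reads scaled to gene length and to the library total, so that levels of different chains can be set side by side within a library. The totals behind them were 24741945 reads for CD4 and 23853921 for CD8, recovered from the values. With 1 library per cell type no difference has a replicate check, and the 95% intervals below cover counting error alone. A gene was compared where it reached 1 RPKM in at least 1 library, and was counted as at least 2-fold different where log2((CD4 RPKM + 1)/(CD8 RPKM + 1)) was 1 or more in size. T cell marker genes were high in both libraries, with 6 of them (Cd3d, Cd3e, Cd3g, Cd247, Lck and Cd2) summing to 2081 RPKM in CD4 cells and 2027 RPKM in CD8 cells. The coreceptor gene Cd4 was at 305 RPKM in CD4 cells and 8.89 RPKM in CD8 cells, and Cd8a at 2.5 RPKM in CD4 cells and 518 RPKM in CD8 cells. The ribosomal protein gene Rpl26, which every cell uses, was listed at 0 in both libraries, so a listed 0 is not read as absence of the transcript.

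Cytokines of the common gamma chain family bind receptors in which a private chain pairs with the gamma chain encoded by Il2rg. The private chain gives the receptor its ligand, while the gamma chain carries the kinase JAK3 and the partner chain carries JAK1. The kinases then activate STAT factors, mainly STAT5 for IL-2, IL-7, IL-9 and IL-15, STAT6 for IL-4 and STAT3 for IL-21. In naive T cells IL-7 is known as the survival signal, and IL-15, presented on other cells, as a homeostatic signal for CD8 cells. Loss of the gamma chain causes severe combined immunodeficiency in humans.

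The start regions of the shared chain Il2rg, of the IL-7 chain Il7r and of Il4ra are shown. These are 3 of the 4 most abundant members, and Il4ra was the compared member highest in CD4 relative to CD8. The other abundant member, Il21r, is not shown. The sequences are from RefSeq on GRCm38.p6, a later build than the mm9 named for the deposited values. RefSeq windows were at hand for 7 of the 8 members, Il2rb being without one. The stretch before Il2rg lies at chrX:101268256-101268505 on the minus strand, that before Il4ra at chr7:125552021-125552270 on the plus strand and that before Il7r at chr15:9529942-9530126 on the minus strand. Capitals mark matches to TGTGGT, the core of RUNX sites, and to TTCNNNGAA, the spaced palindrome of STAT sites.
Il2rg: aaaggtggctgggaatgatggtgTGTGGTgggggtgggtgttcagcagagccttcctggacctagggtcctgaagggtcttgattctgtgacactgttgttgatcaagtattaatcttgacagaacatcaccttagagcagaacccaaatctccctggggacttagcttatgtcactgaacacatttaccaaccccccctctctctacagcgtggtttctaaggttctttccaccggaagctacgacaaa
Il4ra: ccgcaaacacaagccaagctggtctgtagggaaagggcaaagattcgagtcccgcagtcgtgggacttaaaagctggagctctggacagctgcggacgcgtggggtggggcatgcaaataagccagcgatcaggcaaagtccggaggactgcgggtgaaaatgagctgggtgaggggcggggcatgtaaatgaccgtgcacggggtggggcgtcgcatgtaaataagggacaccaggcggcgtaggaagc
Il7r: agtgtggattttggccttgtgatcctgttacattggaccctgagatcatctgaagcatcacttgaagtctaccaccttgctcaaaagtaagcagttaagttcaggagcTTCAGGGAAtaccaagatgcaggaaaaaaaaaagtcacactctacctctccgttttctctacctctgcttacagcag
The motifs GGAAGT, a core of ETS sites, TGTGGT and TTCNNNGAA were searched on both strands in the 250 bases before each start, and no match overlapped another. Of all 32851 windows of that length, 19.7% held GGAAGT, 14.0% TGTGGT and 7.02% TTCNNNGAA. Il2rg had 1 TGTGGT, as did Il21r and Il9r. Il7r had 1 TTCNNNGAA and 1 GGAAGT, the second within 65 bases that are not printed because they lie inside the annotated gene. Il2ra had 1 GGAAGT. Il4ra had 0 matches to any of the 3, and so had both windows of Il15ra. These are matches of letters in a window and no evidence of binding.

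Members fell into a high group and a low group in both libraries, with Il2rb between them in CD8. Il2rg, the shared signalling chain, was the highest at 326 RPKM in CD4 cells (321 to 332) and 353 RPKM in CD8 cells (347 to 359). It ranked 157th among the 23167 symbols in CD4 and 149th in CD8. Il7r, Il4ra and Il21r followed, and with Il2rg they made up 98.4% of the summed receptor RPKM in CD4 cells and 93.1% in CD8. That sum was 818 RPKM in CD4 cells and 740 RPKM in CD8 cells.

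**Figure D1:**
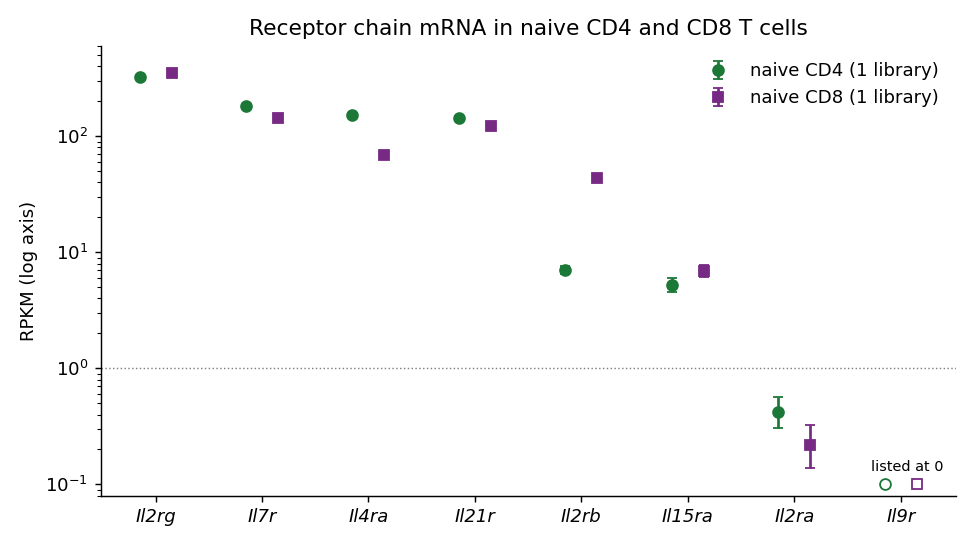
RPKM of the 8 receptor genes (log axis) in the naive CD4 library (circles) and the naive CD8 library (squares), 1 library each, with 95% counting intervals where they exceed the symbol. Open symbols drawn at the foot are listed at 0, and the dotted line marks 1 RPKM; Il2rb stands at 7.01 RPKM in CD4 cells and 44.1 RPKM in CD8 cells.

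The order of the chains differed between the libraries in the place of Il4ra. In CD4 it ran Il2rg, Il7r, Il4ra, Il21r, Il2rb, Il15ra, Il2ra and Il9r. In CD8 Il21r stood above Il4ra, and the order was otherwise the same. Counting intervals of neighbours in the order did not overlap in either library, with Il4ra (150 to 154 RPKM) and Il21r (141 to 147 RPKM) the closest of the high chains in CD4. The low neighbours Il2rb (6.50 to 7.55 RPKM) and Il15ra (4.57 to 6.06 RPKM) were also close in CD4. Whether these neighbours would keep their order in another library was not measured.

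Of the 8 members, 6 reached 1 RPKM and were compared, and 2 of the 6 were at least 2-fold different. Over all 10228 genes compared the share was 5.48%, with 2.41% at least 2-fold higher in CD4 and 3.07% at least 2-fold higher in CD8. Of the genes past that limit 44.0% were higher in CD4, a share that was 64.9% when both libraries were rescaled to sum to 1000000. The 1 member past the limit toward CD4 was Il4ra and the 1 member past it toward CD8 was Il2rb. The 6 members had a median log2 difference (CD4 minus CD8) of 0.06, against 0.08 over all genes compared, and a median absolute difference of 0.33, against 0.25. In bulk RNA, fewer cells that express a gene and less RNA per cell cannot be told apart.

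**Figure D2:**
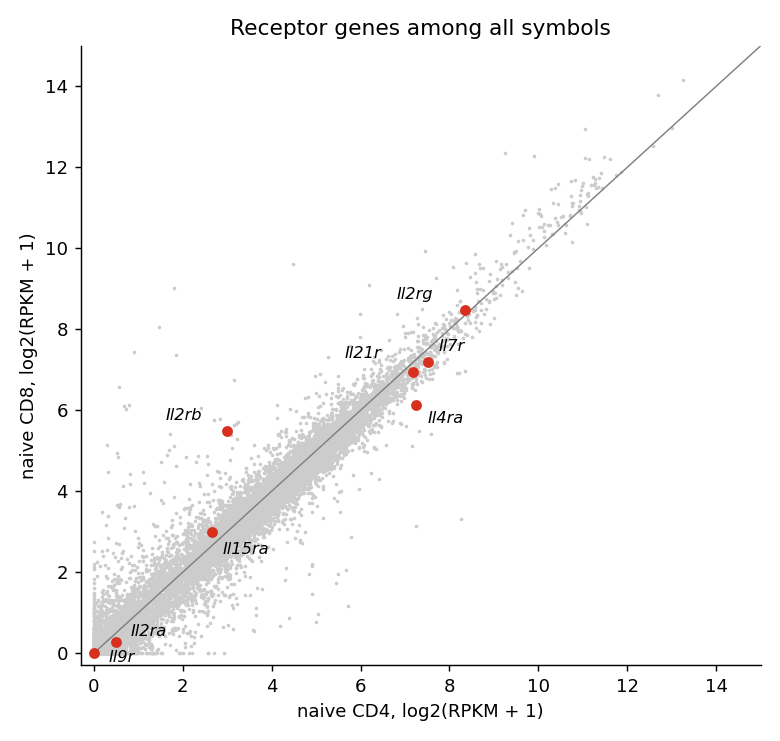
log2(RPKM + 1) of every symbol in the naive CD4 library (x axis) and the naive CD8 library (y axis), with the 8 receptor genes in red and the line of equal values. Il2rb lies above the line (log2 difference -2.49) and Il4ra below it (1.13), while the other named genes lie between -0.34 and 0.33.

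The gamma chain itself was nearly level. Il2rg was at 326 RPKM in CD4 cells, from 12953 reads, and 353 RPKM in CD8 cells, from 13514 reads. It was 0.924 times as high in CD4 (0.902 to 0.947), a difference that turned toward CD4 when both libraries were rescaled to sum to 1000000. Of the protein-coding genes beside it on the X chromosome, Med12 was at 24.1 RPKM in CD4 cells and 26.0 RPKM in CD8 cells, and Gm614 at 16.9 RPKM in CD4 cells and 11.8 RPKM in CD8 cells.

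Among the chains that bind a ligand with the gamma chain, Il4ra differed most toward CD4. This chain binds IL-4 and, paired with the chain encoded by Il13ra1, also IL-13. Il4ra was at 152 RPKM in CD4 cells, from 19113 reads, and 68.9 RPKM in CD8 cells, from 8352 reads, a 2.21-fold difference (2.15 to 2.26). Per 100 RPKM of Il2rg it was at 46.6 in CD4 and 19.5 in CD8, a ratio that the scaling between libraries cannot move and that was 2.39-fold higher in CD4 (2.30 to 2.47). It ranked 351st in CD4 and 935th in CD8. The second chain of the type II receptor, Il13ra1, had 1 read in CD4 and 9 reads in CD8, so the type I pairing of Il4ra with Il2rg had both chains above 1 RPKM and the type II pairing did not.

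Il7r, the IL-7 receptor alpha chain that also serves the receptor for TSLP, was at 182 RPKM in CD4 cells and 145 RPKM in CD8 cells. It was 1.26-fold higher in CD4 (1.23 to 1.29), from 14441 reads in CD4 and 11059 reads in CD8. Il21r, the IL-21 receptor chain, was at 144 RPKM in CD4 cells and 122 RPKM in CD8 cells, a 1.18-fold difference (1.15 to 1.22). Both stood toward CD4 under every scaling tried, and neither reached the 2-fold limit. Relative to Il2rg, Il7r was 1.36-fold higher in CD4 (1.32 to 1.41) and Il21r 1.28-fold higher (1.23 to 1.33). Relative to Il7r, Il21r turned the other way, at 0.940 times its CD8 value (0.904 to 0.978). Crlf2, the chain that pairs with Il7r for TSLP, was at 9.72 RPKM in CD4 cells and 10.9 RPKM in CD8 cells, a ratio of 0.893 (0.765 to 1.04) that was not distinguishable from 1 at this depth. Il7r exceeded Crlf2 by 18.8-fold in CD4 and 13.3-fold in CD8.

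Il4ra and Il21r are neighbours on chromosome 7, with no protein-coding gene annotated between them in RefSeq. They differed unequally, with Il4ra 1.86-fold higher in CD4 relative to Il21r (1.79 to 1.94). The protein-coding genes on either side of the pair were Nsmce1, at 55.7 RPKM in CD4 cells and 53.2 RPKM in CD8 cells, and Gtf3c1, at 26.7 RPKM in CD4 cells and 18.7 RPKM in CD8 cells. Il2ra and Il15ra are likewise neighbours, on chromosome 2, and their ratios stood on opposite sides of equality. Il2ra was under 1 RPKM in both libraries, from 46 reads in CD4 and 23 reads in CD8, and was not compared. The protein-coding genes next to Il2rb on chromosome 15 were at or near 0, with Tmprss6 listed at 0 in both libraries and C1qtnf6 at 0.0167 RPKM in CD4 cells and listed at 0 in CD8.

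Il2rb differed most of all members and stood toward CD8. It encodes the beta chain of the IL-2 and IL-15 receptors, also known as CD122, which signals together with the gamma chain. Il2rb was at 7.01 RPKM in CD4 cells and 44.1 RPKM in CD8 cells, 6.29-fold lower in CD4 (5.80 to 6.82). The reads behind it were 699 in CD4 and 4236 in CD8. The values also allow fewer reads, 233 in CD4 and 1412 in CD8, and the interval is then 5.47 to 7.25. Per 100 RPKM of Il2rg it was at 2.15 in CD4 and 12.5 in CD8, so that Il2rg exceeded it by 46.5-fold in CD4 and by 8.01-fold in CD8. Il7r exceeded Il2rb by 26.0-fold in CD4 and by 3.29-fold in CD8. In rank Il2rb was 7136th in CD4, above 69.2% of symbols, and 1619th in CD8, above 93.0%.

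**Figure D3:**
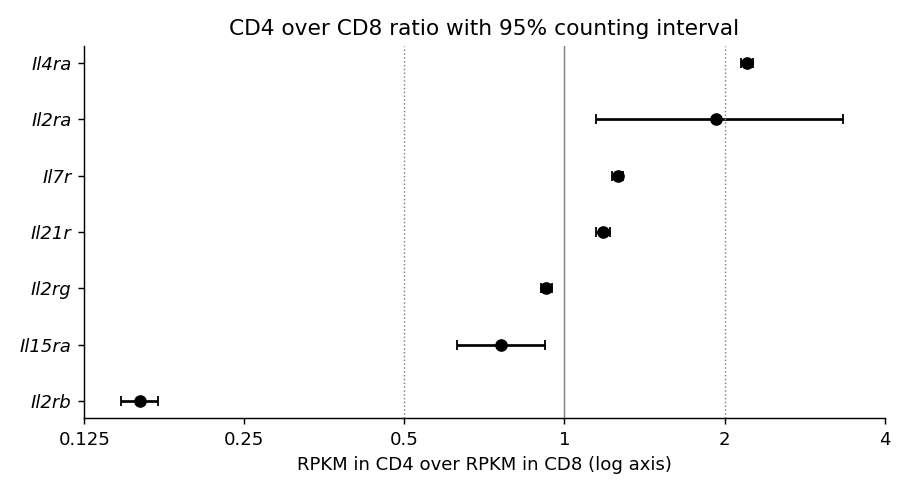
Ratio of RPKM in CD4 cells over RPKM in CD8 cells (log axis) for the 7 members above 0, 1 library per cell type, with 95% counting intervals. The solid line marks equal values and the dotted lines 2-fold; Il2rb is at 0.159, Il4ra at 2.21, and the interval of Il2ra runs from 1.14 to 3.33.

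The alpha chains that raise the affinity for IL-2 and IL-15 were low. Il15ra, which presents IL-15 to cells bearing the beta and gamma chains, was at 5.28 RPKM in CD4 cells, from 201 reads, and 6.94 RPKM in CD8 cells, from 255 reads. It was 1.32-fold lower in CD4 (1.09 to 1.59), and it stands on 2 rows of each table with the same value. Il2rb exceeded Il15ra by 1.33-fold in CD4 and 6.35-fold in CD8. Il2ra encodes CD25, against which both populations were sorted, and the part of that gate in its level was not tested. It was at 0.421 RPKM in CD4 cells, from 46 reads, and 0.218 RPKM in CD8 cells, from 23 reads, under the limit for comparison in both. The ratio of 1.93 had an interval of 1.14 to 3.33. Il9r, the IL-9 receptor chain, was listed at 0 in both libraries and has no ratio.

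Taking each receptor by its least abundant chain, the IL-7, IL-4 type I and IL-21 receptors had the highest limiting levels in both libraries. The limiting chain of the IL-7 receptor was Il7r, at the levels above. For the pairing of Il2rb with Il2rg that binds IL-2 and IL-15 the limiting chain was Il2rb, at 7.01 RPKM in CD4 cells and 44.1 RPKM in CD8 cells. For the IL-2 receptor with all 3 chains it was Il2ra, at 0.421 RPKM in CD4 cells and 0.218 RPKM in CD8 cells. For IL-15 with its own alpha chain it was Il15ra in both. A transcript level is not a count of receptors on the surface.

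The ligands were at or near 0 in both libraries. Of the 8 genes Il2, Il4, Il7, Il9, Il15 and Il21, whose products bind receptors with the gamma chain, and Il13 and Tslp, whose products use Il4ra or Il7r without it, 0 reached 1 RPKM, and they summed to 0.354 RPKM in CD4 cells and 0.631 RPKM in CD8 cells. Il21 had 13 reads in CD4 and was listed at 0 in CD8. Il13 had 4 reads in CD4 and 10 reads in CD8.

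All 9 JAK and STAT genes of the list, the kinases and factors below the receptors, were compared. Of them 0 were 2-fold different, a count too small to set apart from the 5.48% over all genes. Their median log2 difference was 0.09 and their median absolute difference 0.14, against 0.25 over all genes, with Stat3 (0.52), Jak1 (-0.39) and Stat5b (0.35) larger than 0.25 in size. Jak1, which binds the private chains, was at 198 RPKM in CD4 cells and 260 RPKM in CD8 cells, 1.31-fold lower in CD4 (1.29 to 1.33). Stat3, which acts below IL-21 and IL-6, differed most toward CD4, at 73.6 RPKM in CD4 cells and 50.9 RPKM in CD8 cells (1.45-fold, 1.40 to 1.50). The gamma chain's kinase gene Jak3 was at 29.3 RPKM in CD4 cells and 27.6 RPKM in CD8 cells.

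**Figure D4:**
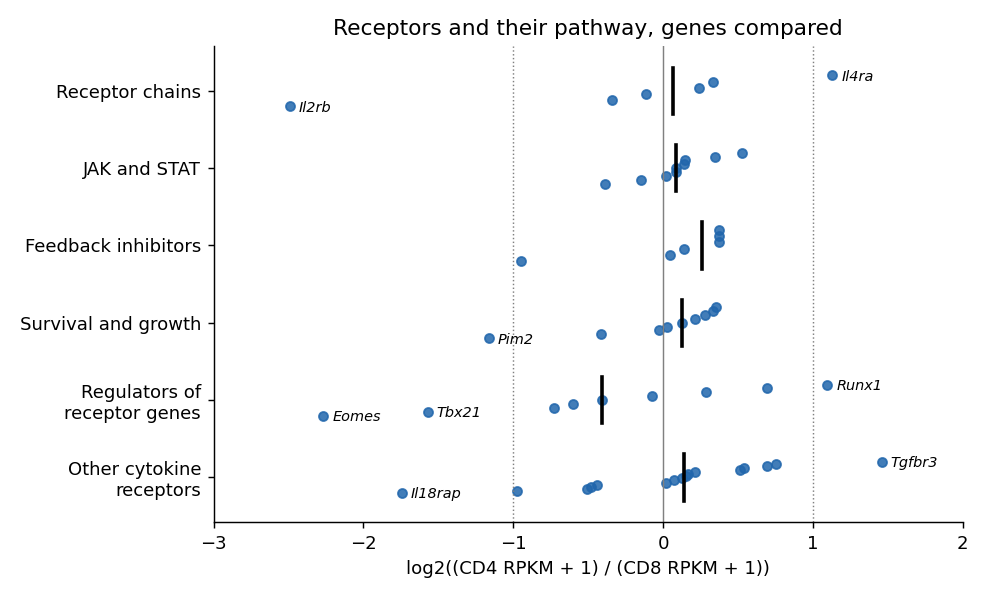
log2((CD4 RPKM + 1)/(CD8 RPKM + 1)) of the compared genes of the receptor set and of 5 gene lists, 1 point per gene, with a black bar at each list's median and dotted lines at the 2-fold limit. Named points are past the limit, and they include Eomes (-2.27), Tbx21 (-1.57) and Pim2 (-1.16) on the CD8 side and Runx1 (1.10) on the CD4 side.

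Among inhibitors of cytokine signalling 6 of 7 were compared and 0 passed the 2-fold limit, with a median log2 difference of 0.26. That count is too small to set apart from the 5.48% over all genes. Socs1, which blocks JAK activity below gamma chain receptors, came nearest, at 6.14 RPKM in CD4 cells and 12.8 RPKM in CD8 cells. It was 2.09-fold lower in CD4 (1.84 to 2.37) but at -0.95 on the log2 scale with the pseudocount. Cish, a classical STAT5 target, was at 1.76 RPKM in CD4 cells and 1.13 RPKM in CD8 cells. Socs2, the inhibitor not compared, stood the other way, with 1 read in CD4 and 11 reads in CD8. The phosphatase gene Ptpn6 and Socs3 were the highest, Ptpn6 at 199 RPKM in CD4 cells and 180 RPKM in CD8 cells, and Socs3 at 90.8 RPKM in CD4 cells and 69.8 RPKM in CD8 cells.

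All 9 survival and growth genes known to act below these receptors were compared, with a median log2 difference of 0.12. Only 1 was at least 2-fold higher in CD8 cells and 0 in CD4, too few to set apart from the 5.48% over all genes. That gene was Pim2, a survival kinase, at 9.67 RPKM in CD4 cells and 22.9 RPKM in CD8 cells (2.37-fold lower in CD4, 2.13 to 2.64). The next largest difference was in Myc, a transcription factor of cell growth, at 7.79 RPKM in CD4 cells and 10.7 RPKM in CD8 cells. Bcl2, the survival gene that IL-7 maintains, was at 19.7 RPKM in CD4 cells and 19.3 RPKM in CD8 cells, a ratio of 1.02 (0.976 to 1.07). Mcl1, which also protects against apoptosis, was at 128 RPKM in CD4 cells and 99.9 RPKM in CD8 cells, and the cyclin gene Ccnd2 at 118 RPKM in CD4 cells and 121 RPKM in CD8 cells.

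Transcription factors known to act on the receptor genes went both ways. Of 9 compared, 1 was at least 2-fold higher in CD4 cells and 2 in CD8, with a median log2 difference of -0.41. The shares over all genes compared were 2.41% toward CD4 and 3.07% toward CD8. Eomes and Tbx21, the T-box factors that promote Il2rb in mouse T cells, stood toward CD8 as Il2rb did. Eomes was at 1.83 RPKM in CD4 cells and 12.6 RPKM in CD8 cells (6.91-fold lower in CD4, 5.87 to 8.17). Tbx21 was at 0.222 RPKM in CD4 cells, from 14 reads, and 2.63 RPKM in CD8 cells, from 160 reads. Runx1 was at 7.06 RPKM in CD4 cells and 2.77 RPKM in CD8 cells (2.55-fold, 2.30 to 2.84). Ets1 was the highest, at 792 RPKM in CD4 cells and 490 RPKM in CD8 cells, followed by Klf2, a quiescence factor, at 35.4 RPKM in CD4 cells and 54.3 RPKM in CD8 cells. Gfi1, a repressor of Il7r, was at 6.47 RPKM in CD4 cells and 11.4 RPKM in CD8 cells. The part of these factors in the differences of Il2rb, Il7r and the other members was not tested.

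Markers of memory-like CD8 cells and of NK cells, which are known to carry CD122, stood toward CD8 beside Il2rb. Of 6 memory-like markers, Ly6c2, Cxcr3, Eomes, Tbx21, Ccl5 and Cd44, 5 passed the 2-fold limit toward CD8 and 1, Cd44, toward CD4. Among all genes compared 3.07% passed it toward CD8 and 2.41% toward CD4. Summed, the memory-like markers were at 12.2 RPKM in CD4 cells and 213 RPKM in CD8 cells. Ly6c2, which shares sequence with a paralog, was the highest of them at 164 RPKM in CD8 cells. Of 7 NK markers 4 were compared, Klrb1c, Klrd1, Gzma and Eomes, and all 4 were at least 2-fold higher in CD8. The NK list summed to 10.7 RPKM in CD4 cells and 125 RPKM in CD8 cells, of which Klrd1 was 7.85 RPKM in CD4 cells and 106 RPKM in CD8 cells. Klrb1c had 2 reads in CD4 and 85 reads in CD8 (44.1-fold lower in CD4, 11.8 to 370). Among NK markers not compared, Ncr1 had 4 reads in CD4 and was listed at 0 in CD8. Klre1 was listed at 0 in CD4 and had 8 reads in CD8, and Tyrobp had 5 reads in CD4 and 7 reads in CD8. Of 5 markers of naive cells 0 were at least 2-fold different, and all 5 stood toward CD4. Ccr7 was at 453 RPKM in CD4 cells and 426 RPKM in CD8 cells. Lef1 differed most of them, at 144 RPKM in CD4 cells and 99.6 RPKM in CD8 cells (1.45-fold, 1.40 to 1.50). The part of memory-like or NK cells in the Il2rb difference was not tested.

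Markers of other cells were low or mixed. The 7 regulatory T cell markers, Il2ra among them, summed to 117 RPKM in CD4 cells and 85.2 RPKM in CD8 cells. Of 6 compared, 2 were at least 2-fold higher in CD4, Folr4 and Foxp3, and 2 in CD8, Ikzf2 and Ctla4. Across all genes compared these shares were 2.41% and 3.07%. Foxp3 had 136 reads in CD4 and 15 reads in CD8. The 5 B cell markers summed to 3.45 RPKM in CD4 cells and 30.0 RPKM in CD8 cells, nearly all from Cd79b at 2.14 RPKM in CD4 cells and 28.8 RPKM in CD8 cells, while Cd79a, Ms4a1 and Pax5 stayed below 1 RPKM in both. The 6 myeloid markers summed to 7.37 RPKM in CD4 cells and 6.21 RPKM in CD8 cells, with Cd14 listed at 0 in both, and held genes that went opposite ways. Itgam had 186 reads in CD4 and 62 reads in CD8 (2.89-fold higher in CD4, 2.16 to 3.92), and Itgax 26 reads in CD4 and 102 reads in CD8 (4.07-fold lower in CD4, 2.62 to 6.52). On the log2 scale with the pseudocount they were at 0.75 and -0.71. Of 4 myeloid markers compared, 0 passed the 2-fold limit. The part of these cells in the differences of Il4ra, Il2ra and the other members was not tested.

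The 3 genes nearest to Il2rb in level over both libraries were Cd72, Ggt1 and Amica1. Distance was measured on log2(RPKM + 1) over the 2 libraries, and was 0.0413 for Cd72, 0.256 for Ggt1 and 0.302 for Amica1. Cd72 was at 7.20 RPKM in CD4 cells and 43.3 RPKM in CD8 cells. With only 2 libraries, this likeness says no more than that the levels were close.

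Beside the gamma chain family, 20 receptor genes of other cytokines were examined. Of 16 compared, 1 was at least 2-fold higher in CD4 cells and 1 in CD8, or 12.5% against 5.48% over all genes. So few genes cannot be set apart from the share over all genes. Their median log2 difference was 0.14 and their median absolute difference 0.49. The gene past the limit toward CD4 was Tgfbr3, a co-receptor for TGF-beta, at 23.6 RPKM in CD4 cells and 7.94 RPKM in CD8 cells. Toward CD8 it was Il18rap, a chain of the IL-18 receptor, at 0.524 RPKM in CD4 cells and 4.11 RPKM in CD8 cells. Il12rb1 came near the limit, at 1.88 RPKM in CD4 cells and 4.65 RPKM in CD8 cells. It was 2.47-fold lower in CD4 (2.01 to 3.05) but at -0.97 on the log2 scale with the pseudocount. The highest were Il27ra, at 162 RPKM in CD4 cells and 160 RPKM in CD8 cells, and Tgfbr2, at 184 RPKM in CD4 cells and 126 RPKM in CD8 cells.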

How the data were processed

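Total RNA of 1 naive CD4 and 1 naive CD8 library was profiled by SOLiD sequencing after ribosomal RNA depletion, per the labels' protocols. The submitters' processing notes name TopHat and HTSeq with build mm9. The versions, the annotation, any strand setting and how multiply mapped reads were handled are not given among the sources used. The authors deposited RPKM in tables of 26882 rows. These hold 23167 symbols, 2597 of them on several rows with identical values, which were counted once.

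Whole reads were recovered from the RPKM. Their ratios and the wholeness of gene lengths gave the library totals, scaled by transcript lengths of GENCODE M21. At these totals 1000 of 1000 sampled genes had whole reads in both libraries within the printed precision (9 decimals or 10 significant digits), against 1 with the CD8 total moved by 1000. A gene's reads are known up to a whole multiple, and the multiple closest to an annotated length was used. The calculation was tested on simulated data whose gene lengths came from the same GENCODE M21 lengths used in the recovery. That setting favours the right multiple, so it cannot show how well the multiple is chosen under the annotation behind the deposited values.

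With 1 library per group there was no test and no p-value. Folds are ratios of deposited RPKM, with Clopper-Pearson 95% intervals from the split of reads. RPKM intervals are exact Poisson intervals, and ratios of ratios have exact conditional intervals. The log2 differences carry a pseudocount of 1 RPKM, which understates low genes. All 8 members were named. In each list the 2 highest by mean RPKM, the 2 with the largest difference and all past the 2-fold limit were to be named, and others were added after their values were seen. Some genes that this rule takes are not reported here. Median differences of the marker lists are not given, and 1 list of 12 housekeeping genes was used only for scaling and had 0 genes past the 2-fold limit. The members and lists were chosen with earlier results of these data known. Alternatives were pseudocounts of 0.1 and 5 RPKM, no filter or one at 5 RPKM, 3 rescalings, and Il7r as denominator. Calculations used Python 3.11.15, NumPy 2.4.6 and SciPy 1.17.1.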

Additional observations from a re-analysis of the deposited data

How the results depend on the processing

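All 48 member values under 7 other settings of pseudocount, filter and scaling kept their side of the 2-fold limit. The filter settings decide only which genes are compared, so their values repeat the main ones and could not move. Il2rg was the member whose sign changed. When both libraries were rescaled to sum to 1000000 the log2 differences (CD4 minus CD8) were 1.35 for Il4ra, 0.54 for Il7r, 0.45 for Il21r, 0.10 for Il2rg and -2.37 for Il2rb. Centred on the median gene they were 1.05 for Il4ra, 0.25 for Il7r, 0.16 for Il21r and -0.19 for Il2rg. A pseudocount of 5 RPKM gave 1.09 for Il4ra and -2.03 for Il2rb, and one of 0.1 RPKM gave -2.63 for Il2rb. The median over all genes compared was 0.29 after rescaling to that sum, against 0.08 as deposited.

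Genes at least 2-fold higher in CD4 numbered 247, against 600 with the rescaled sum, 428 with a pseudocount of 0.1 RPKM, 73 with one of 5 RPKM and 152 with a filter at 5 RPKM. Those at least 2-fold higher in CD8 numbered 314, against 125 with a pseudocount of 5 RPKM and 208 with the filter at 5 RPKM. Among inhibitors 1 gene passed the limit after centring on the median gene or with a pseudocount of 0.1 RPKM. Of the survival and growth genes 0 passed with the rescaled sum or a pseudocount of 5 RPKM. With that pseudocount 1 regulator of the receptor genes and 1 other cytokine receptor passed, and with the filter at 5 RPKM 1 other cytokine receptor did. After centring on the median gene, or with a pseudocount of 0.1 RPKM, 3 other cytokine receptors passed. With Il7r in place of Il2rg as denominator the CD4 over CD8 ratio was 0.940 for Il21r, which turned it round, 1.75 for Il4ra, 0.604 for Il15ra and 0.126 for Il2rb. Without Il2rg and Il7r the summed receptor RPKM was 309 in CD4 and 242 in CD8. The smallest reads the values allow, an alternative chosen after seeing the data, moved no ratio and widened the interval of Il2rb alone among the members. The deposited RPKM summed to 457587 in CD4 and 530342 in CD8. What lay behind the difference of these sums, and behind the other shifts, was not tested. No paired analysis was possible because each cell type had 1 library, and for the same reason no library could be left out.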
